A study of Mus musculus with 5 samples.

Results

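Sites that had no entry in the 1 h library while they were covered at 0, 0.5, 1.5 and 2 h made up 676 of the 34714 short sites annotated as transcription start sites in the table. They were chosen by these values (0 at 1 h and 1 or more at each other time), so the absence at 1 h is the definition of the set and not a result. The cells were C17.2, an established multipotent neural stem cell line of mouse (strain given as CD1 x C57BL/6), and accessible chromatin was mapped by ATAC-seq, in which a transposase cuts and tags open DNA. Cells grown in medium with serum gave the 0 h control, and the libraries of 0.5, 1, 1.5 and 2 h came from cells moved to serum-free medium with N2 supplement, the signal for neural differentiation. Each time had 1 library, so every difference below is a difference between single libraries, with no replicate error and no test. The value of a site is a whole number from 0 to 10, taken as how many entries of the library's BED file of intervals lie over the site. Neighbouring sites share an interval and are not independent: merged at 500 bp, the 676 sites fell into 404 of 9217 regions, and they carried 389 of 8034 gene symbols (11 sites had no symbol). A value of 0 means that no interval was called over the site, which does not show closed chromatin, and in bulk cells a smaller share of cells with an open site and a less open site in every cell cannot be told apart.

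Promoters of active genes are usually kept free of nucleosomes around the start of transcription, and the open stretch often runs on into the first exon and intron. CpG islands are the most common promoter type of genes used in many tissues, and they bind factors such as SP1 through GC boxes. Genes of signalling and development often have several starts, each with its own open stretch, so that 1 start may be covered while another is not. Withdrawal of serum and its growth factors, which comes with the change of medium, is known to alter signalling through receptor tyrosine kinases within minutes.

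Of 12 neural progenitor markers 6 were among the listed sites, of which 2, 3, 2, 4 and 3 had a covered site in order of time. At every time 1 of 3 listed neuronal markers was covered, as were 1 of 4 of the oligodendrocyte lineage and the single listed marker of microglia and blood. No astrocyte, mesenchymal or endothelial marker was listed, and no marker of any of these lists had a site in the set. The label of the cells could therefore be checked on few genes.

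The promoter windows of the 6 highest-ranked genes whose site lies within the window are shown because no listed site of the window, or of the region around it, was covered at 1 h. Baz2a, Olfm2 and Prr7 have further sites elsewhere in the gene that were covered then. Each runs from 250 bases before to 50 after a RefSeq start (GRCm38.p6), 5′ to 3′ on the strand of the gene, and capitals mark the sites of the set. The windows are those of Adgrl3 (chr5:81020502-81020801, plus strand), a latrophilin adhesion receptor, Baz2a (chr10:128092533-128092832, plus strand), a subunit of the complex that silences ribosomal DNA, Cd276 (chr9:58554984-58555283, minus strand), an immune checkpoint molecule of the B7 family, Hdac7 (chr15:97831718-97832017, minus strand), a class IIa histone deacetylase, Olfm2 (chr9:20726954-20727253, minus strand), a secreted olfactomedin, and Prr7 (chr13:55464017-55464316, plus strand), a transmembrane protein of synapses.
Adgrl3: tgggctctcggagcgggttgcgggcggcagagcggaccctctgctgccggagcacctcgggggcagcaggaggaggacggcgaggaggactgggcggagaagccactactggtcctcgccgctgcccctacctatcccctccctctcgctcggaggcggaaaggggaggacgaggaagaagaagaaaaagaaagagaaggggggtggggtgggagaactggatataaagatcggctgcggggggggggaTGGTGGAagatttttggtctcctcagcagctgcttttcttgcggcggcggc
Baz2a: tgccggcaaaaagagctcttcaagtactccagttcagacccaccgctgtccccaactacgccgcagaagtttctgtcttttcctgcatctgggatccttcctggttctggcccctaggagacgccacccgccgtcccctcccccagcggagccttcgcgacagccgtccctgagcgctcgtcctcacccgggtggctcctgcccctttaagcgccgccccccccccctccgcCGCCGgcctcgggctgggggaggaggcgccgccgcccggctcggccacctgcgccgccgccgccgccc
Cd276: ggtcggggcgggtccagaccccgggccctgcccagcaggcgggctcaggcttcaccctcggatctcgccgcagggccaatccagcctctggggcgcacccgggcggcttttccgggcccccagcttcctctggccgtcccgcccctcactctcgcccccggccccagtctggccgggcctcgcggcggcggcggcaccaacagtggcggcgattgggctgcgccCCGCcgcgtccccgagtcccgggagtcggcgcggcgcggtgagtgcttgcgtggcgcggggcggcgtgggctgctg
Hdac7: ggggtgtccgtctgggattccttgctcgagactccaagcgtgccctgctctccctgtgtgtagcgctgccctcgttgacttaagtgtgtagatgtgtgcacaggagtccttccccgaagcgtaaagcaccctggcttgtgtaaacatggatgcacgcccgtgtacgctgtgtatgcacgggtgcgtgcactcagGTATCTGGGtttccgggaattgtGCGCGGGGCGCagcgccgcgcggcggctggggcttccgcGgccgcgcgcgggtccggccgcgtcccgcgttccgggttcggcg
Olfm2: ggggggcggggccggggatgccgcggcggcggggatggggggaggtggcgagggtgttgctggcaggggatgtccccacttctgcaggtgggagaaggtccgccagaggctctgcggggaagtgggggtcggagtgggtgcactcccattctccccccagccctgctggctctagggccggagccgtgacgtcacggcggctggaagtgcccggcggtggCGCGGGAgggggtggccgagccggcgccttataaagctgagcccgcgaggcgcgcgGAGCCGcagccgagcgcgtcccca
Prr7: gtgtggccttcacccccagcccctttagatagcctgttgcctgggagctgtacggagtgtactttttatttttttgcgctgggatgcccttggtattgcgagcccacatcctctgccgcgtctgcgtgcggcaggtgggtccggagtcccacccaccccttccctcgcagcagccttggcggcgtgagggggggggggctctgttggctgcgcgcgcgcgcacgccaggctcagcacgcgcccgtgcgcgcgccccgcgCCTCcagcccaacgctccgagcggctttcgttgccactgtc

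The capitals lie at the start itself in each window. The site of Adgrl3 is centred 2 bp downstream of the RefSeq start, that of Prr7 10 bp downstream, that of Baz2a 16 bp upstream and that of Cd276 24 bp upstream. Hdac7 has 3 sites between 52 bp upstream and 6 bp downstream of the start, and Olfm2 has 2 sites, 27 bp upstream and 29 bp downstream. These are starts of alternative transcripts for several of the genes: measured from the outermost 5′ end of the gene, the sites of Adgrl3, Baz2a, Hdac7 and Olfm2 lie 1669, 1397, 12741 and 19359 bp inside. The windows hold between 21 and 39 CpG dinucleotides and their GC content runs from 64.7% (Adgrl3) to 78.3% (Cd276). GC boxes (GGGCGG, either strand) number 2 in Adgrl3, 3 in Baz2a, 4 in Cd276 and 1 in Olfm2, and none is in the windows of Hdac7 and Prr7. Adgrl3 and Olfm2 have a TATAAA, and Olfm2 has a TGACGTCA, the cyclic AMP response element.

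Over the whole RefSeq table, 110 windows held a site of the set and 3434 held a site covered in all 5 libraries, with 33 windows in both groups (chromosome 18 was not used here). Both groups were rich in CpG islands, with a median GC content of 72.7% and 68.7%, against 52.7% over all 32851 windows. The observed to expected CpG ratio was 0.938 and 0.937 in the 2 groups and 0.384 over all windows. The ETS motif CCGGAAG was found in 8.18% of the windows with a site of the set (9 windows, Wilson 95% interval 4.36 to 14.8%), in 19.6% of those with a site covered throughout (18.3 to 21.0%) and in 8.86% of all. The E-box CACGTG was in 4.55%, 11.8% and 7.15%, the NRF1 half-site GCATGCGC in 3.64%, 7.63% and 2.71%, and the AP-1 motif TGANTCA in 0.909%, 3.06% and 7.81%. Of the other motifs, GGGCGG was found in 86.4%, 84.7% and 35.7%, CCAAT in 30.0%, 33.2% and 37.4%, TATAAA in 8.18%, 6.17% and 13.6%, TGACGTCA in 5.45%, 3.49% and 1.79%, and the YY1 motif AAGATGGCG in 2.73%, 3.29% and 1.40%. Both strands were searched, each motif on its own, so matches of different motifs may overlap. The intervals cover counting error over windows only, the differences between the groups were not tested, and a match is only a match of letters.

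Of the 15963 sites covered at the other 4 times, 4.23% had no entry at 1 h (Wilson 95% interval 3.93 to 4.56%, counting error over sites only). The same rule with another library as the missing one gave 2061 sites for 0 h (11.9%), 64 for 0.5 h (0.417%), 11 for 1.5 h (0.0719%) and 75 for 2 h (0.488%). The 1 h library was thus the only one of the 3 inner times with over 100 such sites. The 2 libraries with the most were also those with the fewest entries in all, 42527 for 0 h and 45254 for 1 h, against 56773, 65824 and 59437 for the libraries of 0.5, 1.5 and 2 h. The share of all sites covered was 51.2% at 1 h, within a range of 47.6 to 66.9% over the libraries. The part of these totals in the number of sites missing at 1 h was not tested.

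**Figure D1:**
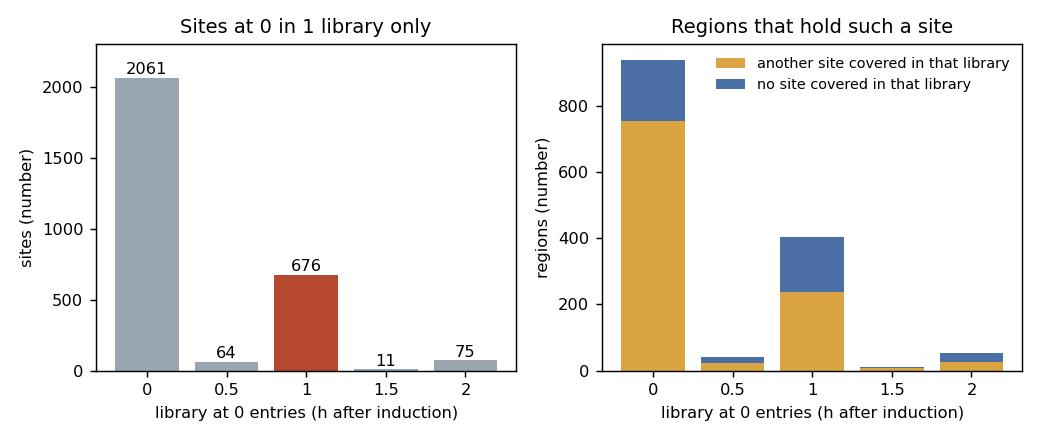
Number of sites at 0 entries in a single library and covered in the other 4 (left), and number of regions that hold such a site (right, split by whether another site of the region was covered in that library), by the time of the missing library. The 1 h bar of 676 sites lies between the 2061 of 0 h and the 11 to 75 of the other times.

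Regions came in 2 forms. In 166 of the 404 (41.1%, Wilson 95% interval 36.4 to 45.9%) no listed site was covered at 1 h, and these held 283 of the 676 sites. In the other 238, with 393 sites, at least 1 neighbouring site was covered at 1 h. These 238 regions were rich in listed sites (median 7, against 2 in the uncovered regions), and 59 of the 166 uncovered regions had a single listed site and could take no other form. Among regions with at least 2 listed sites the uncovered share was 31.0% (107 of 345). Of all 5895 regions with a site covered at the other 4 times, 6.85% held a site of the set and 2.82% had no site covered at 1 h.

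In the partly covered regions the covered sites spanned a shorter stretch at 1 h than at the other times. The span is measured between listed sites and is not the length of open DNA. The span from the first to the last covered site had a median of 146.5 bp in the 1 h library, against 342.5, 404.0, 465.0 and 452.0 bp in those of 0, 0.5, 1.5 and 2 h. In 3570 other regions with 2 or more listed sites and a site covered at the same 4 times, the medians were 156.0, 208.5, 187.0, 230.0 and 227.0 bp in order of time, so that 1 h stood between 0 h and 0.5 h. Both the short span at 1 h and the longer spans at the other 4 times rest on values that chose the regions, which also need at least 2 listed sites covered at some time, so the spans are a description. Of the 393 sites, 325 (82.7%) lay at the edge, outside all sites still covered at 1 h, and 68 lay between covered sites. Where a region had a single covered site at 1 h, a missing site could lie only at the edge. Part of this share is therefore fixed by the definition. The nearest covered site was a median of 105 bp away (quartiles 50 and 228 bp), and in 281 of the 393 pairs (71.5%) it held the same values as the missing site in each of the other 4 libraries. Member sites lay downstream of that neighbour, in the direction of the gene, in 237 of the 353 pairs within 1 gene that could be placed (67.1%). This share was not computed for sites missing in other libraries or for listed sites in general, so it has no background here. For sites missing only at 0 h, 71.7% of 1672 lay at the edge, with a median distance of 113 bp. At the edge lay 24 of 39 sites missing only at 0.5 h (61.5%), 6 of 8 for 1.5 h and 35 of 39 for 2 h (89.7%).

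**Figure D2:**
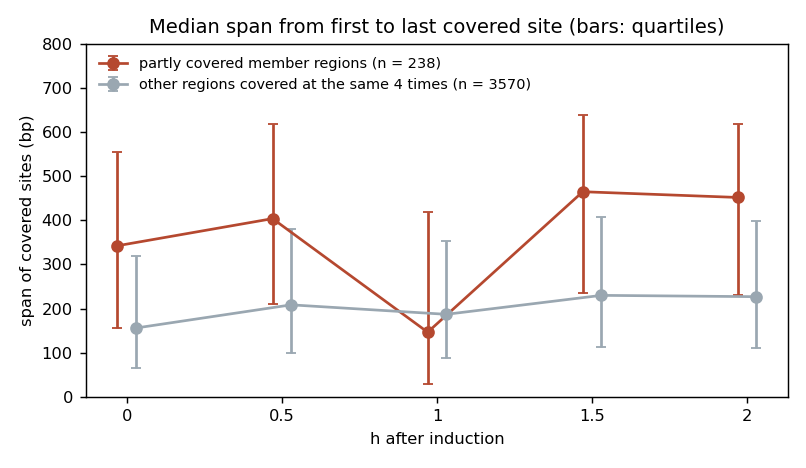
Span from the first to the last covered site (bp, median with quartiles) in the 238 partly covered regions and in 3570 other regions covered at the same 4 times, by hours after induction. The partly covered regions stand at 146.5 bp at 1 h and between 342.5 and 465.0 bp at the other times.

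The highest values beside the gap at 1 h were at genes of adhesion and histone methylation, both in regions with no site covered at 1 h. Adgrl3 (chromosome 5) held 7, 8, 0, 5 and 7 entries in the libraries of 0, 0.5, 1, 1.5 and 2 h, the order used from here on, over 1 of its 6 listed sites. Setd7, a lysine methyltransferase of histone H3 and other proteins, held 7, 6, 0, 6 and 7 over all 3 of its listed sites (chromosome 3, the highest-ranked at 51560375 to 51560376, 448 bp inside the gene). Kifc3, a minus-end directed kinesin, held 7, 8, 0, 5 and 1 at 2 sites, the higher-ranked 60305 bp from the 5′ end. Adgrl3 and Setd7 were alike in standing at 5 or more entries on both sides of the gap, while Kifc3 was low at 2 h as well. Tnpo2, an import receptor for RNA-binding proteins, met the rule with 8, 1, 0, 2 and 1 entries at its single site, a profile that was high at 0 h alone.

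**Figure D3:**
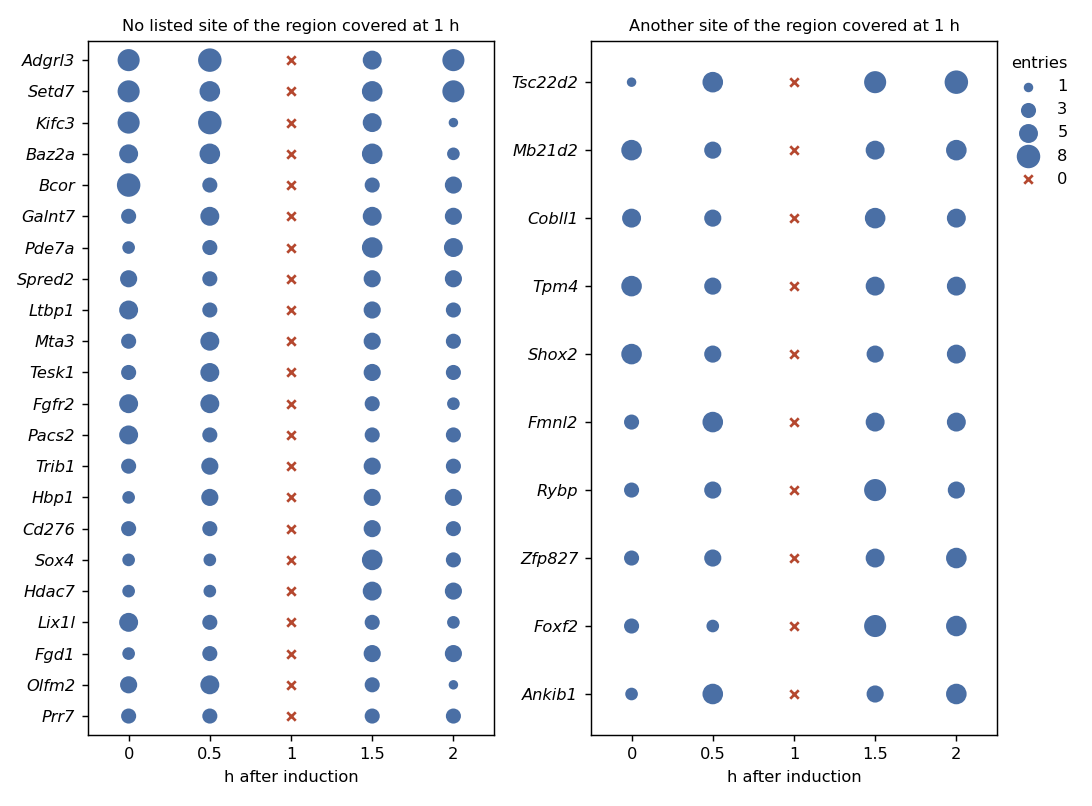
Entries per library (area of the points; crosses mark 0) at the highest-ranked sites with a gene name, for 22 regions with no listed site covered at 1 h (left) and 10 regions with another site covered at 1 h (right). Adgrl3 and Setd7 hold 5 to 8 entries in all 4 other libraries, while Kifc3 and Olfm2 are at 1 entry at 2 h.

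Among chromatin regulators, 6 of 47 genes of histone and DNA methylation and acetylation that had a site covered at the other 4 times had a site of the set (12.8%), where the share over all 5737 such genes was 6.78%. For 4 of the 6 (8.51%, against 2.42% over all genes) no listed site of the gene was covered at 1 h. These 4 were Setd7, Hdac7 (2, 2, 0, 5 and 4 entries at 3 sites), Kdm2b, a histone demethylase that recruits a Polycomb complex to CpG islands, and Kmt5a, which monomethylates histone H4. Kdm2b had 7 sites of the set in 2 regions, with 2, 2, 0, 2 and 1 entries near the 5′ end (1018 bp inside) and 1, 1, 0, 1 and 1 at an inner start. Kmt5a held 1, 1, 0, 2 and 2 entries. Dnmt3a, a de novo DNA methyltransferase, and Suz12, a core subunit of Polycomb repressive complex, each had 1 such site and other sites covered at 1 h. Of 54 remodellers and readers, 4 had a site of the set (7.41%), among them Baz2a with 5, 6, 0, 6 and 2 entries, the Polycomb ring finger gene Bmi1 with 2, 1, 0, 2 and 2, and the helicase gene Chd6 with 1, 2, 0, 3 and 1. Outside these lists, the highest-ranked regions included Bcor, a corepressor of a Polycomb complex, with 8, 3, 0, 3 and 4 entries 24926 bp from the 5′ end and up to 4 entries at 1 h elsewhere in the gene, and Mta3, a subunit of the NuRD complex, with 3, 5, 0, 4 and 3 at its single listed site.

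Transcription factor genes of the homeobox, Sox, Fox, bHLH and related families had a site of the set in 12 of 99 cases (12.1%), and in 6 of them (6.06%) no listed site was covered at 1 h. The list was made by symbol patterns and 1 of the 12, Tbxas1, is a thromboxane synthase. Sox4, a factor of neuronal differentiation, held 2, 2, 0, 6 and 3 entries 566 bp inside the gene, with its value at 1.5 h above those of all other times. The neural POU factor gene Pou3f1 held 1, 2, 0, 1 and 1 entries at 1 of its 14 listed sites, close to the lowest level the rule takes. Sox13, a SoxD factor, had 9 of its 13 sites in the set, all with 3, 4, 0, 4 and 4 entries, while other sites of the gene held up to 2 entries at 1 h. Hoxc5 had 4 sites with 3, 1, 0, 1 and 2 entries, and Foxf2, a mesenchymal forkhead factor, held 3, 2, 0, 7 and 6. Other sites of their regions held up to 2 entries at 1 h for Hoxc5 and up to 3 for Foxf2. Of 114 numbered zinc finger and related genes 9 had such a site (7.89%), among them Zfp827 with 3, 4, 0, 5 and 6. The Zfp827 site lay 87 bp from a site covered at 1 h, and its region held up to 5 entries then.

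Signalling genes of growth factor pathways, which respond to serum, had a site of the set in 6 of 46 cases (13.0%), with no listed site covered at 1 h for 3 of them (6.52%). Spred2, an inhibitor of the Ras to ERK pathway, held 4, 3, 0, 4 and 4 entries 708 bp inside the gene. Spry1, another antagonist of receptor tyrosine kinase signalling, held 1, 2, 0, 4 and 2 at 3 sites, in a region where sites with another symbol were covered at 1 h, and the S6 kinase gene Rps6kb1 held 2, 2, 0, 3 and 3 at its single site. Spred2 was at 3 or more entries in all other libraries and Spry1 was not. Fgfr2, a fibroblast growth factor receptor, had 8 sites of the set 485 to 649 bp inside the gene, all in 1 region with no covered site at 1 h, the highest-ranked with 5, 5, 0, 3 and 2 entries (chromosome 7, 130266157 to 130266161). The table attached its symbol to sites spread over megabases, so only this region is taken as the gene's own. Grb10, an adaptor that restrains insulin signalling, held 2, 1, 0, 2 and 1, and the phosphatase gene Ptpn11 held 2, 4, 0, 2 and 3, with other sites of both covered at 1 h.

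Of 58 genes of the Wnt, TGF-beta, Notch and Hippo pathways, 7 had a site of the set (12.1%), and 3 of them (5.17%) had no listed site covered at 1 h. All 3 belong to TGF-beta: the ligand gene Tgfb1 held 4, 3, 0, 1 and 1 entries, and Ltbp1 and Ltbp3, which bind the latent ligand in the matrix, held 5, 3, 0, 4 and 3 and 1, 1, 0, 1 and 1. Their sites lie 894, 971 and 915 bp inside their genes. The TGF-beta family receptor genes Acvr2a and Bmpr1a held 1, 3, 0, 3 and 3 and 2, 3, 0, 3 and 2, with other sites covered. For the Wnt pathway, the coreceptor gene Lrp6 held 2, 1, 0, 2 and 3 and the feedback inhibitor gene Axin2 held 4, 3, 0, 3 and 3, the site lying 3192 bp from the 5′ end. No gene on this list that encodes a Notch receptor or a Hippo kinase had a site of the set. How many such genes had a site covered at the other times was not counted, so this absence has no background here.

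Of 77 adhesion, matrix and guidance genes, 8 had a site of the set (10.4%), and 6 of them (7.79%) had no listed site covered at 1 h. Beside Adgrl3 these were Sema5b, a guidance semaphorin, with 4, 3, 0, 4 and 1 entries at both of its listed sites, the cell adhesion gene Cadm4 with 3, 1, 0, 4 and 2, the integrin genes Itga9 (2, 1, 0, 1 and 1) and Itgb5 (2, 2, 0, 3 and 3), and the synaptic adhesion gene Slitrk2 (1, 2, 0, 2 and 1), which the pattern for Slit genes also takes. Adgrl3 stood above the other 5, which held 4 entries at most. Genes with a site of the set, 3 or more listed sites and none covered at 1 h numbered 71, of varied functions. No share was taken for synaptic genes. Among the 71 were the kainate receptor gene Grik4, with 2, 1, 0, 2 and 2 entries at 4 sites, and the auxiliary kainate receptor subunit gene Neto2, with 1, 3, 0, 3 and 4 at 6 sites. The calcium channel gene Cacna1a held 1, 1, 0, 1 and 1 at 3 of its 27 listed sites. The synaptic vesicle gene Syp (synaptophysin) held 1 entry at each other time at 2 sites.

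The remaining lists, most of them of housekeeping functions, had shares of genes with a site of the set close to or below that of all genes. The share with no listed site covered at 1 h was 2.42% over all genes. It was 4.65% for microtubules (2 of 43), 3.23% for nuclear transport (1 of 31) and 2.71% for the ubiquitin and proteasome list (6 of 221). These counts are too small to set the lists apart from all genes. In the other remaining lists it was lower than over all genes. Of the lists described above, it was also lower for remodellers and readers (1 of 54, 1.85%) and numbered zinc finger genes (2 of 114, 1.75%). None of 66 eligible genes of the respiratory chain and of mitochondrial ribosomes and import, and none of 19 of glycolysis and the tricarboxylic acid cycle, had a site of the set. Of 107 splicing factor and RNA helicase genes 2 had one (1.87%), Rbm15 and U2af1, and of 83 membrane trafficking genes also 2 (2.41%), Syt12 and Vps54. DNA repair had 1 of 28 (Rev1), immediate early genes 1 of 26 (Trib1, with 3, 4, 0, 4 and 3 entries, and another region of the gene covered at 1 h), solute carriers 3 of 80 and chaperones 2 of 47. The lists of cell cycle and replication (3 of 46), nuclear transport (2 of 31), small GTPases and regulators (8 of 126), actin (3 of 46), microtubules (2 of 43), translation (5 of 81) and ubiquitin ligases, deubiquitinases and proteasome (15 of 221) lay between 4.65% and 6.79%, close to or below the share over all genes. Named examples are Rpl32, a protein of the large ribosomal subunit, with 2, 2, 0, 3 and 2 entries, the elongation factor gene Eef2 with 4, 2, 0, 3 and 2, the small GTPase gene Rac1 with 1, 3, 0, 2 and 1, and the deubiquitinase genes Otud7b (4, 2, 0, 2 and 4) and Usp24 (3, 3, 0, 6 and 4).

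The number of listed sites differs between the lists. Genes with a site of the set had a median of 6 listed sites, against 3 over all eligible genes. The median was 5 in the lists of histone modification and of Wnt and related pathways, 6 for transcription factors, 4 for growth factor signalling and 2 for adhesion. It was 6.5 for immediate early genes and 6 for remodellers, 3 for splicing, nuclear transport, small GTPases and solute carriers, 1 for the mitochondrial list and 2 for each of the others. Among the lists with a median of 4 or more, only that of immediate early genes (1 of 26, 3.85%) lay below the share over all genes (6.78%). The part of the number of sites in the shares was not tested, and no list was tested against the rest.

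**Figure D4:**
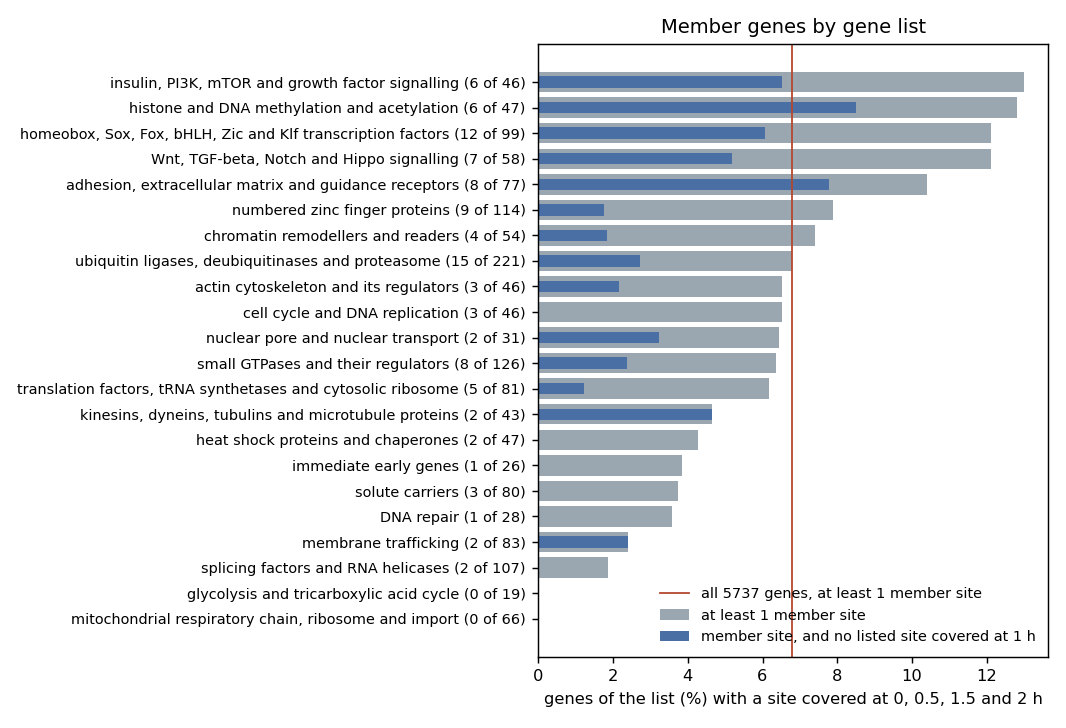
Share of the genes of each list, among those with a site covered at 0, 0.5, 1.5 and 2 h, that had at least 1 site missing only at 1 h (grey) and that also had no listed site covered at 1 h (blue), with the share over all 5737 such genes (line, 6.78%). Growth factor signalling has the highest share at 13.0% and the mitochondrial and glycolysis lists are at 0.

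For 139 of the 389 genes (35.7%) no listed site was covered at 1 h, and 71 of these had 3 or more listed sites. Nrg4, a neuregulin that activates the ERBB4 receptor, had all 8 of its listed sites in the set, with 1 or 2 entries at each other time, in a single region at -43213 to -42898 bp from its RefSeq 5′ end. All 5 sites of Arrb1, which encodes a beta-arrestin that switches off G protein-coupled receptors, held 2, 1, 0, 5 and 2 entries, and all 4 of Rfng, a fringe glycosyltransferase that modifies Notch, held 1, 1, 0, 3 and 2. Nfil3, a bZIP repressor, had 7 of 22 sites in the set, with 2, 3, 0, 1 and 4 entries. Values were the same over all sites of the set in each of these genes except Nrg4, so these sites are not separate observations. Serpine2, a protease inhibitor also known as protease nexin, had 4 of 5 sites with 2, 2, 0, 1 and 2 entries. Bcl7a, a subunit of the SWI/SNF remodeller, had 4 of 12 with 4, 2, 0, 1 and 2. Rcc2, a regulator of chromosome condensation and Rac1, had 4 of 15 with 1, 2, 0, 2 and 1.

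Further regions of high rank with no covered site at 1 h included the glycosyltransferase gene Galnt7 with 3, 5, 0, 5 and 4 entries, the cyclic AMP phosphodiesterase gene Pde7a with 2, 3, 0, 6 and 5 and the LIM-kinase-related gene Tesk1 with 3, 5, 0, 4 and 3. Hbp1, a repressor of cell cycle genes, held 2, 4, 0, 4 and 4 at its single site, and Cd276 held 3, 3, 0, 4 and 3 at its single site. Pacs2, a sorting protein of contacts between mitochondria and endoplasmic reticulum, held 5, 3, 0, 3 and 3 entries 59933 bp from the 5′ end, with other sites at up to 3 entries at 1 h. Lix1l held 5, 3, 0, 3 and 2 entries. Fgd1, an exchange factor for Cdc42, held 2, 3, 0, 4 and 4, Olfm2 held 4, 5, 0, 3 and 1, and Prr7 held 3 entries at each other time.

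In partly covered regions the highest values were those of Tsc22d2, a leucine zipper protein of the TSC22 family, with 1, 6, 0, 7 and 8 entries 645 bp inside the gene, 611 bp from the nearest site covered at 1 h. Mb21d2 held 6, 4, 0, 5 and 6 entries only 51 bp from a covered site, and other sites of the region held up to 4 at 1 h. Cobll1 held 5, 4, 0, 6 and 5, 228 bp from a covered site. Among the 10 regions named, the distance to a covered site ran from 51 to 909 bp. The tropomyosin gene Tpm4 held 6, 4, 0, 5 and 5 at 4 sites, the formin gene Fmnl2 held 3, 6, 0, 5 and 5, the homeobox gene Shox2 held 6, 4, 0, 4 and 5, Ankib1 held 2, 6, 0, 4 and 6 and the Polycomb-associated gene Rybp held 3, 4, 0, 7 and 4, 909 bp from the nearest covered site. In 3 regions the set held sites of 2 symbols on opposite strands: Smim19 with Slc20a2, Pcbp1 with a Rik gene, and Hes7, a Notch effector of the segmentation clock, with a Rik gene.

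Mean values in the other 4 libraries were lower than at sites covered throughout. The mean was 2.13, 2.40, 2.76 and 2.48 entries at 0, 0.5, 1.5 and 2 h in the set, against 2.62, 2.87, 2.84 and 2.62 at the 15287 sites covered in all 5 libraries. A site of the set held a single entry in 36.4% of cases at 0 h and in 19.5% at 1.5 h, against 17.3% and 9.5% there. From 0.5 h to 1.5 h, 258 of the 676 sites had more entries, 141 fewer and 277 equal numbers (38.2, 20.9 and 41.0%), while of the sites covered throughout 24.7% had more and 29.3% fewer. From 0 h to 2 h, 274 had more and 130 fewer (40.5 and 19.2%), against 29.2 and 31.0%. From 0 h to 0.5 h, both before the gap, 248 had more and 144 fewer (36.7 and 21.3%), against 34.1 and 20.7%. These values chose the set, and the counts are a description.

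The share of sites missing at 1 h was 10.0% where the mean of the other 4 libraries was 1 entry (49 of 489, Wilson 95% interval 7.66 to 13.0%), 5.73% for means over 1 to 2, 3.65% over 2 to 3, 3.25% over 3 to 4 and 2.42% over 4 to 5 (26 of 1074, 1.66 to 3.52%). Above 5 entries it was 4.22% (10 of 237, 2.31 to 7.59%). Just inside the rule, 368 of the 676 sites held a single entry in at least 1 other library and 49 held a single entry in all 4. With 2 or more entries asked at each other time 308 sites remained, and with 3 or more 80. Just outside it, 2373 sites had 1 entry at 1 h and were covered at the other times. Another 1750 were at 0 at both 0 and 1 h and covered at the rest, 142 at 0.5 and 1 h, 24 at 1 and 1.5 h and 83 at 1 and 2 h. The reverse pattern, covered at 1 h alone, was found at 11 sites, against 48, 88, 691 and 543 sites covered only at 0, 0.5, 1.5 and 2 h.

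Position within the gene was not used by the rule. The median position was 325 bp inside the gene, counted from its RefSeq 5′ end (614 sites had one), against 191 bp for sites covered throughout and 317 bp for all listed sites. Within 100 bp of the 5′ end lay 20.2% of the set and 30.1% of the sites covered throughout, and 250 to 1000 bp downstream lay 34.7% and 25.6%. Sites missing only at 0 h lay farther in, with a median of 362.5 bp, 13.7% within 100 bp and 40.1% at 250 to 1000 bp downstream. All these distances are from the outermost 5′ end of the gene. From the nearest RefSeq start of the same gene, known for 470 sites of the set, the median was 99.5 bp and 30.0% lay within 100 bp. That distance was not computed for the other groups of sites. The share of eligible sites that were missing at 1 h was lowest in the 250 bp upstream of the 5′ end, at 2.49% (66 of 2647, Wilson 95% interval 1.96 to 3.16%). It was 3.24% in the first 250 bp downstream, 4.47% at 250 to 500 bp, 7.78% at 500 to 750 bp (74 of 951, 6.24 to 9.66%) and 6.25% at 750 to 1000 bp. The 74 sites included several of Sox13 and several of Fgfr2, each group in 1 region. The intervals treat such neighbouring sites as independent. The mean of the other 4 libraries was 2.63 entries in the 250 bp upstream and 2.96 at 500 to 750 bp downstream, and it was lowest, at 2.43, more than 1000 bp upstream. The sites more than 1000 bp upstream also had the highest share, 12.2% (30 of 245), and these 30 sites included the 8 of Nrg4 and the 4 of Hoxc5. They also included sites over a megabase from the 5′ end of their symbol's gene, among them those of Fgfr2 outside its own region. Several of the 30 sites were deposited as overlapping their gene, so the distance and the symbol do not match there. The share of this bin is therefore not taken as a property of upstream DNA. Strand, width and overlap with a gene were close to those of all listed sites: 50.8% of named sites had the strand of their gene (51.2% overall), the median width was 5 bp in both, and 80.0% overlapped their gene in both.

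**Figure D5:**
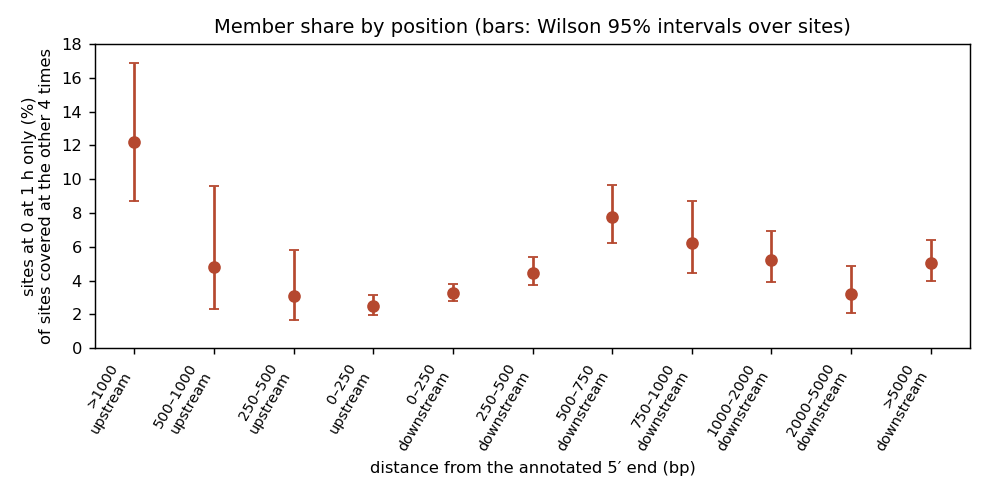
Share of sites missing only at 1 h (%, with Wilson 95% intervals over sites) among sites covered at the other 4 times, by distance from the annotated 5′ end (bp). The share is 2.49% just upstream of the 5′ end and 7.78% at 500 to 750 bp downstream. The intervals treat neighbouring sites of a region as independent.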

How the data were processed

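ATAC-seq values of 5 libraries, 1 per time, were taken from a single deposited table. Per the labels and file headers, each column is named after a BED file. The deposited score of a site is a whole number from 0 to 10, read here as BED entries over the site, and the authors' steps to it are given only as tool names: Bowtie2, MACS2, deepTools and GRCm38 (mm10), per the submitters' processing notes. Settings, treatment of duplicates and of the transposase offset, peak thresholds, read depth and the origin of the sites are not stated in what was used here, so the precision of a value is unknown. The deposited distance of a site to its gene (unit other) was not used for results.

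Columns were mapped to times by sample title. Sites at most 500 bp apart were merged into regions. Distances were taken from the site's centre to the 5′ end of the gene of that symbol in the RefSeq table (GRCm38.p6), with the strand of the deposited table, and 94.6% of named sites had one. Promoter windows held 73.8% of the 389 genes, under the limit of 80%, so a comparison of GC content by gene is void, and windows were compared by the sites they hold. Genes were named by rank: the 25 regions with no site covered at 1 h and the 10 others with the highest sum over the other 4 libraries, member genes of 22 lists and genes with 3 or more listed sites of which none was covered at 1 h. Predicted genes and Galnt2l, a symbol spread over megabases, were counted and not named. The members and lists were chosen with earlier results of these data known. With 1 library per time no test was run. Python 3.11.15, pandas 2.3.3, numpy 2.4.6 and matplotlib 3.10.9 were used, and the selection and merging steps were tested on simulated data.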

Additional observations from a re-analysis of the deposited data

How the results depend on the processing

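Of 28 changes, 13 kept their value within limits (1.5 times for counts, the 95% interval for shares and medians) and 15 did not. Of the 13, 2 belong to the void comparison by gene and were judged by other limits. For each of the 5 libraries the tally also takes a count of regions in place of sites, which changes the unit. The fall to 308 sites entered it under 2 results. Asking for 2 entries at each other time left 308 sites, 203 regions and 197 genes, with 32.5% of the regions uncovered at 1 h, and asking for 3 left 80 sites, since stricter rules admit fewer sites. Merging at 200 bp raised the share of uncovered regions to 52.2%, and leaving out regions with a single listed site, chosen after seeing the data, gave 31.0%. With a gene judged only by its site of highest mean, 157 genes remained. Where coverage at 0 h was not asked, also chosen after seeing the data, the set grew to 2426 sites. With 2 entries asked in the other libraries, sites missing only at 0, 0.5, 1, 1.5 and 2 h numbered 1287, 23, 308, 2 and 26, so the order of 0 h, 1 h and the rest was kept, and counted by region there were 939 for 0 h, 41 for 0.5 h and 404 for 1 h. The cause of the other shifts was not tested. No paired analysis was possible because each time had 1 library and no test was run. Read depth is unknown, so it could not be said at which depth a site at 0 would have been called.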

Other observations

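A larger share of sites was missing at 1 h on chromosome X than on the autosomes. Of 247 sites on X covered at the other 4 times, 23 were missing at 1 h (9.31%), against 653 of 15716 on the autosomes (4.16%). By region the shares were 14 of 125 (11.2%) and 390 of 5770 (6.76%), and regions with no site covered at 1 h made up 7.20% and 2.72%. The mean over the other 4 libraries was 2.72 entries on X and 2.73 on the autosomes. For sites missing only at 0 h the order was the reverse, with 9.68% on X and 11.9% on the autosomes. The genes on X included Bcor, Fgd1, Slitrk2 and Syp, described above, and Cited1, a transcriptional coactivator, with 2, 1, 0, 2 and 2 entries at 3 sites, Fhl1, a LIM protein of muscle, with 2, 4, 0, 4 and 1, and the E3 ligase gene Mid2. The difference between X and the autosomes was noticed after seeing the data and was not tested.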
